A study of Mus musculus with 23 samples.

Results

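The mitosis and spindle genes are 45 genes, named by symbol, whose products start mitosis, build the spindle, watch over chromosome attachment and carry out the separation of the chromosomes and of the daughter cells. They were chosen by name, with earlier results of these data known, and not by a threshold on these arrays. A gene counted as measured where a probe annotated to it had a detection p-value, the rank of the probe's signal against its array's background, under 0.05 on 3 or more of the 23 arrays. The brightest such probe stood for the gene. Of the 45 genes, 41 had a probe and 29 were measured, among 17176 features tested on the array, 11348 of which carried a gene symbol. Ccnb1, Cenpf, Kif20a and Mki67 were not analysed here. The probes of 12 genes missed the detection rule, namely Ccnb2, Cdk1, Ttk, Espl1, Cenpe, Nek2, Spag5, Hmmr, Racgap1, Ect2, Anln and Foxm1, and their signals are described after the measured members.

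Spleen RNA of male DBA/2J and C57BL/6J mice, 10 weeks old, was hybridised to 1-colour Illumina arrays, and each array held RNA pooled from 2 mice. In either strain a control group with sham exposure stood beside 10 cGy of gamma rays, given at 9 cGy per hour from 137Cs, and 1 Gy, given at 6 Gy per minute from 60Co, with spleens taken 24 h later. Every group had 4 pools except DBA/2J at 10 cGy, which had 3. The 2 doses also differ in rate and in source. Effects of dose, rate and source cannot be told apart. Samples are pools, so the p-values measure the spread between pools and not between single mice, and the number of arrays limits the precision. Values are log2 signals after background correction and quantile normalization, with a floor of 4.39 and a median over all features of 7.64, and changes are differences on that log2 scale with their standard error.

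Cells entering mitosis switch on a shared set of genes late in the cell cycle. Cyclins and CDC25 phosphatases activate CDK1, Polo and Aurora kinases build the spindle from microtubules, kinesin motors move and align the chromosomes, the checkpoint proteins hold back anaphase until every kinetochore is attached, and the anaphase-promoting complex then releases the sister chromatids. In mammals many of these genes are bound by the DREAM and MuvB complexes at a promoter element called CHR, and p53 lowers their transcription after DNA damage through its target p21, encoded by Cdkn1a. In adult mice the spleen is also a site of red cell formation, so its dividing cells include erythroid precursors beside activated lymphocytes.

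Between 14233 and 16002 probes per array had a detection p-value under 0.05, fewest in the 3 DBA/2J pools at 10 cGy (14233 to 14452). Of the lymphocyte lists, 11 of 12 B cell markers and 13 of 16 T cell markers were measured, which does not tell spleen from other tissues that hold lymphocytes. Pancreas genes stood out in 2 pools, with a mean log2 signal of 14.1 in C57BL/6J 1 Gy pool 1 and 13.8 in C57BL/6J control pool 1, against at most 6.82 in every other pool. Without both pools, 20 of the 29 members were called lower at 1 Gy in C57BL/6J, against 21 with them, and 14 at 10 cGy, against 15. In DBA/2J, 10 cGy pool 2 was the lowest of its 3 pools for 26 of the 29 members, and control pool 1 was the highest of its 4 pools for 26 of 29.

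Of the 29 members, 6 fell in DBA/2J spleens at 1 Gy, 15 in C57BL/6J spleens at 10 cGy and 21 in C57BL/6J spleens at 1 Gy. Of all features, 1.11%, 2.97% and 4.66% were lower in these comparisons, in that order. With single pools left out the counts ran from 0 to 7, from 7 to 17 and from 19 to 21. The DBA/2J pools at 10 cGy were split, with 2 of 3 above their controls on the mean of the members. The mean log2 signal of the 29 members over the DBA/2J pools was 10.06, 9.32, 9.49 and 9.28 under control, 10.62, 9.11 and 10.73 at 10 cGy, and 8.27, 8.51, 8.74 and 8.69 at 1 Gy. Over the C57BL/6J pools it was 9.37, 10.01, 9.37 and 9.83 under control, 8.50, 8.60, 8.77 and 8.67 at 10 cGy, and 7.83, 8.04, 8.52 and 8.42 at 1 Gy. No irradiated C57BL/6J pool and no DBA/2J pool at 1 Gy reached the lowest control pool of its strain, whereas the DBA/2J pools at 10 cGy lay on both sides of their controls.

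**Figure D1:**
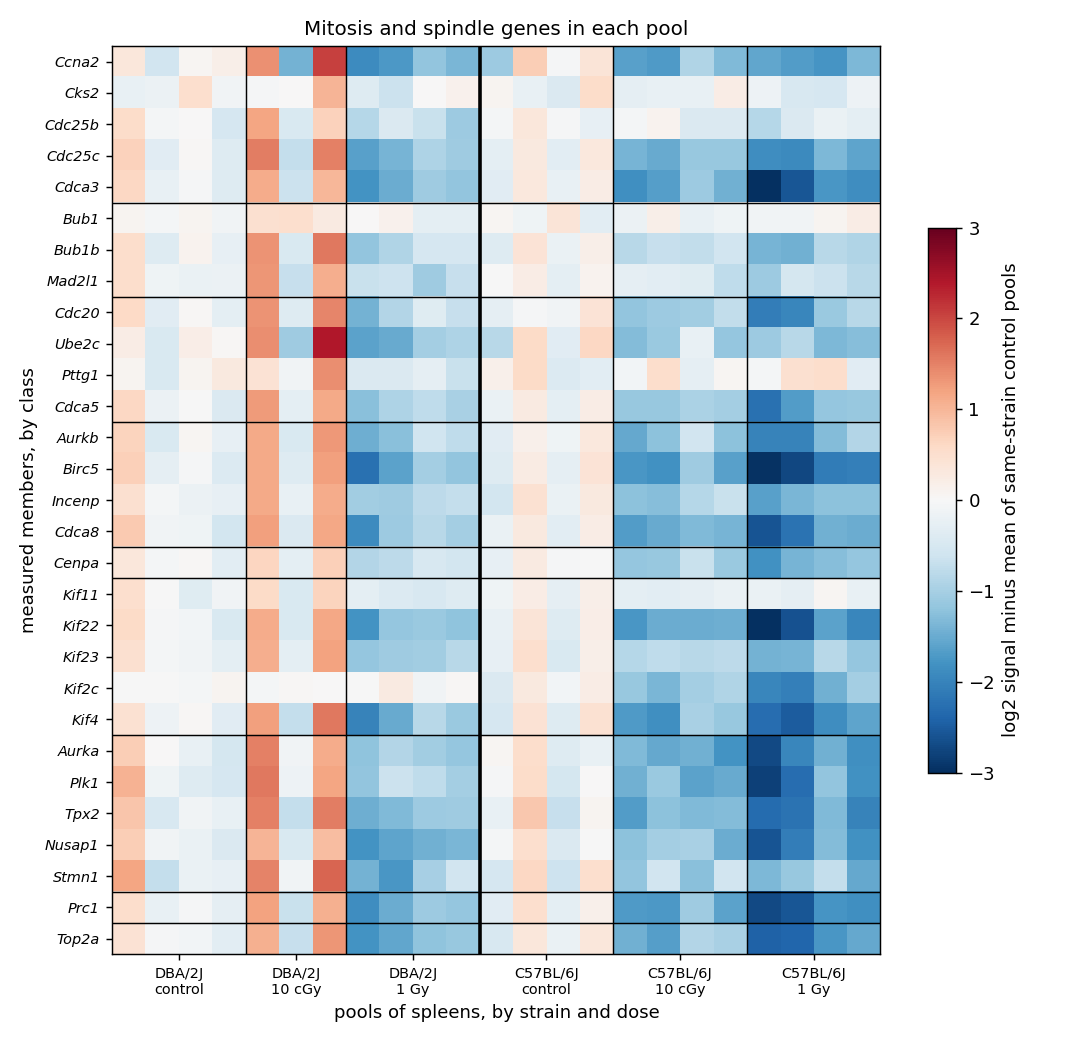
Log2 signal of the 29 measured members (vertical axis, grouped by class) in each of the 23 pools (horizontal axis, by strain and dose), minus the mean of the same strain's control pools; the colour scale ends at -3 and 3. Blue fills nearly all members in the C57BL/6J pools at both doses and in the DBA/2J pools at 1 Gy, and red fills most of DBA/2J 10 cGy pools 1 and 3 but not pool 2.

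At 1 Gy in C57BL/6J, 21 of 29 members fell and 0 rose (limma, adjusted p under 0.05 after Benjamini-Hochberg adjustment over all 17176 features). Over all features 4.66% were lower and 3.44% higher. The median member change was -1.56, against 0.05 over all features. For 23 of the 29 members every 1 Gy pool lay below every control pool, which held for 7.74% of all features. The largest falls were those of Birc5, the survivin subunit of the chromosomal passenger complex, with a change of -2.46 ± 0.34 (5.49-fold lower), Kif22, a kinesin that pushes chromosome arms, at -2.37 ± 0.34, Cdca3, which helps destroy the mitosis inhibitor WEE1, at -2.29 ± 0.33, and Prc1, the bundler of midzone microtubules, at -2.22 ± 0.33. The 21 include Nusap1 and Ccna2, which by the deposited p-values were detected on no 1 Gy array of C57BL/6J and were measured through other groups. The 8 members that did not pass were Cks2, Cdc25b, Bub1, Mad2l1, Ube2c, Pttg1, Kif11 and Stmn1, with changes from -1.19 to 0.15. In RNA from a whole organ, fewer dividing cells and less of these transcripts per cell cannot be told apart.

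Markers of blood-forming cells moved with the members in this comparison. Of 26 measured erythroid markers (35 listed), 25 were lower, with a median change of -4.27, and their summed normalized signal was 65867 to 83735 in the 1 Gy pools against 216142 to 328113 in the control pools. Of 16 measured granulocyte markers (22 listed), 13 were lower, with sums of 20119 to 36969 at 1 Gy and 65703 to 193771 under control. Of 10 measured megakaryocyte markers (12 listed), 9 were lower, with sums of 9090 to 13370 and of 21032 to 44900 in the same order. The lymphocyte lists did not fall: 0 of 11 B cell markers, 0 of 8 germinal centre and plasma cell markers and 0 of 13 T cell markers were lower, and 1 T cell marker was higher, Cd247, chosen after its value was seen, at 0.72 ± 0.21 (adjusted p = 0.0343). No list mean lay at the floor in any pool. The part of these lists in the change of the members was not tested.

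At 10 cGy in C57BL/6J, 15 of 29 members fell and 0 rose, against 2.97% of all features lower and 0.623% higher. The median member change was -1.11, against 0.05 over all features, and for 20 members the 10 cGy pools lay wholly below the control pools (6.39% of all features). The changes were -1.57 ± 0.34 for Birc5, -1.55 ± 0.34 for Kif22, -1.52 ± 0.33 for Prc1 and -1.52 ± 0.31 for Aurka, the kinase of the spindle poles. Among the 15, Nusap1 and Cdca8 were detected on no 10 cGy array of C57BL/6J by the deposited p-values, although their signals lay far above the floor. The count rested on single pools: it was 7 without control pool 2, without control pool 4 or without 10 cGy pool 1, and 9 without 10 cGy pool 2 or pool 4. The calls of Birc5, Kif22, Prc1, Aurka, Cdca3, Cenpa and Kif2c were kept whichever of the 8 pools was left out. The call was lost without any 1 of 7 pools for Cdc25c and Cdca5, of 6 for Plk1 and Nusap1, of 5 for Kif4 and Top2a, of 4 for Incenp and of 3 for Cdca8. Erythroid markers were again lower (25 of 26, median -2.44, sums of 92796 to 174413 at 10 cGy and 216142 to 328113 under control), and their part was not tested. Of 16 granulocyte markers 14 were lower (sums of 18334 to 32747 and of 65703 to 193771) as were 9 of 10 megakaryocyte markers (sums of 7888 to 11477 and of 21032 to 44900), and their part was not tested either.

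The 1 Gy and 10 cGy comparisons share the 4 C57BL/6J control pools. Set directly against 10 cGy, 0 of the 29 members passed at 1 Gy in limma, 7 were lower and 0 higher at an unadjusted p under 0.05, and the median change was -0.44. Of all features 0.122% were called lower and 0.099% higher, and 2.47% were lower and 2.96% higher at the unadjusted threshold. The 1 Gy pools lay wholly below the 10 cGy pools for 4 members (Bub1b, Birc5, Cenpa and Prc1), against 2.08% of all features. Of 26 erythroid markers 4 were called lower in this comparison, 20 were lower at the unadjusted threshold, and their median change was -1.64. The other marker lists had 0 calls, and the part of the erythroid list was not tested.

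At 1 Gy in DBA/2J, 6 of 29 members fell and 0 rose, where 1.11% of all features were lower and 0.472% higher. They were Nusap1, Birc5, Top2a, Prc1, Cdca3 and Kif23. By its deposited p-value Nusap1 was detected on no 1 Gy array, so it was measured through other groups, although its signals lay far above the floor. The median member change was -1.03, against 0.03 over all features. At an unadjusted p under 0.05, 24 members were lower (6.28% of all features), and for 22 members the 1 Gy pools lay wholly below the control pools (5.92% of all features). The count of 6 depended on single pools: 0 passed without control pool 1, without 1 Gy pool 1 or without 1 Gy pool 2, 1 without control pool 3, 2 without control pool 2, and 3 without 1 Gy pool 3 or pool 4. The call was lost without any 1 of 7 of the 8 pools for Cdca3 and Kif23, of 6 for Prc1 and Top2a, of 4 for Birc5 and of 3 for Nusap1. Of the erythroid markers 9 of 26 were lower (median -1.58, sums of 143786 to 197640 at 1 Gy and 281630 to 397532 under control). Granulocyte markers did not fall with the members here: 0 of 16 passed, their median change was 0.29, and their sums were 39007 to 55163 at 1 Gy and 21412 to 93480 under control. Megakaryocyte, B cell, germinal centre and T cell lists had 0 members past the threshold, and the part of the erythroid list was not tested.

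At 10 cGy in DBA/2J, 0 of 29 members passed in limma, 9 were higher and 0 lower at an unadjusted p under 0.05 (12.3% of all features were higher and 15.5% lower at that threshold), with a median member change of 0.66, against 0.01 over all features. After adjustment 3.43% of all features were higher and 6.82% lower. The result turned on pool 2, whose member mean was 9.11 beside 10.62 and 10.73 in the other pools of the group: without it 26 of 29 members were called higher, with 14.1% of all features higher. Without control pool 1, 5 members were called higher (Cdca5, Kif23, Aurka, Plk1 and Stmn1), with 6.83% of all features higher. Stmn1, which destabilises microtubules, had a change of 1.04 ± 0.44 (adjusted p = 0.128) with all pools and of 1.61 ± 0.43 (adjusted p = 0.0076) without 10 cGy pool 2. Bub1, a kinase of the spindle checkpoint, was the 1 member whose 10 cGy pools all lay above the control pools, against 6.64% of all features.

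Marker lists moved in the same group. All 16 granulocyte markers were higher at 10 cGy in DBA/2J (median 3.26, sums of 193301 to 270215 at 10 cGy and 21412 to 93480 under control), as were 8 of 10 megakaryocyte markers (sums of 37959 to 83022 and of 16892 to 42198 in the same order). Of the lymphocyte lists, 9 of 11 B cell markers (sums of 13878 to 44207 at 10 cGy and 33282 to 56126 under control), 7 of 13 T cell markers (9926 to 24768 and 16322 to 23548) and 1 of 8 germinal centre and plasma cell markers were lower. Of 26 erythroid markers 0 passed (median 0.49, sums of 254706 to 481353 at 10 cGy and 281630 to 397532 under control). In the low pool 2 the granulocyte mean was 12.40, below the 12.63 and 13.21 of the other pools. Its erythroid mean was 11.58, below their 13.11 and 13.24. Its B cell mean was 10.22, above their 8.94 and 9.32. Pool 2 was thus the lowest of its group for the members, the erythroid markers and the granulocyte markers. The gap to the other pools was smallest for the granulocyte markers. The part of any list in the member values was not tested.

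**Figure D2:**
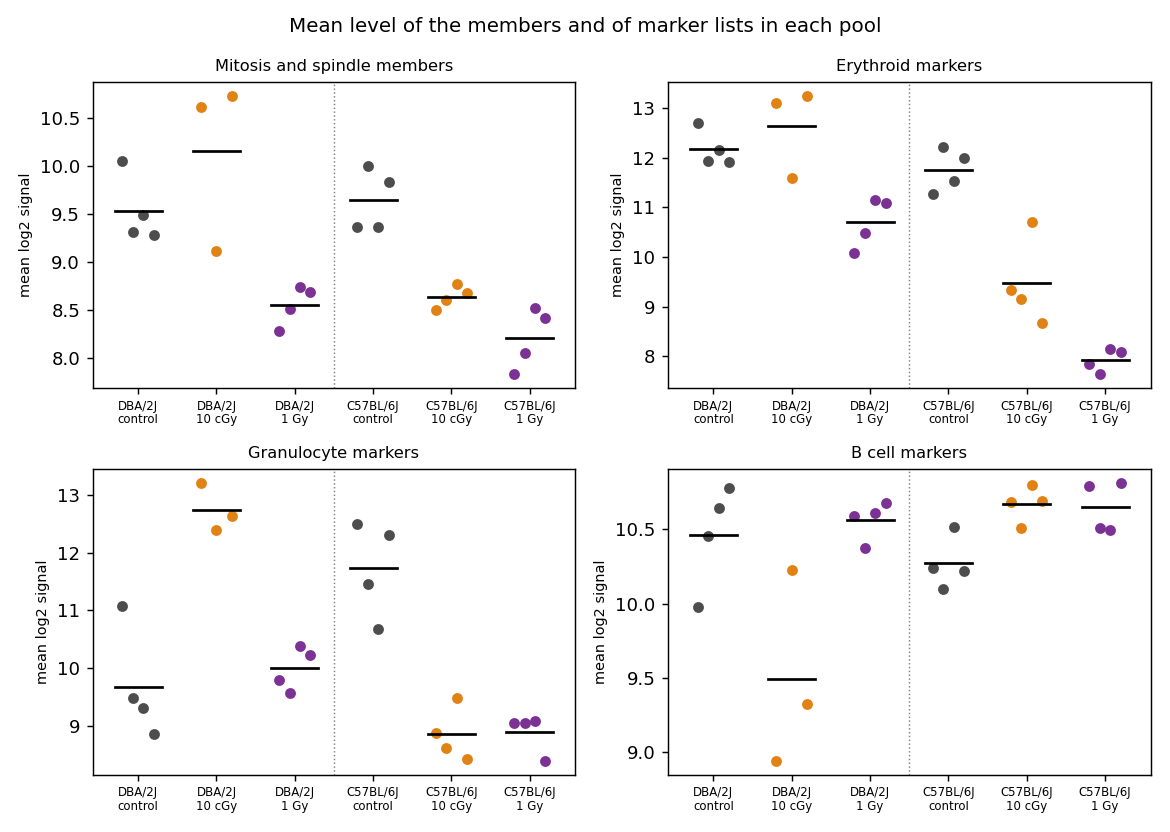
Mean log2 signal (vertical axes) of the 29 measured members and of 3 marker lists in each pool, by strain and dose on the horizontal axes; each point is 1 pool and the bar is the mean of the group. DBA/2J 10 cGy pool 2 was the lowest of its group for members (9.11), erythroid markers (11.58) and granulocyte markers (12.40), with the smallest gap for the granulocyte markers.

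The change at 10 cGy differed between the strains for 22 of 29 members, each more positive in DBA/2J (interaction in limma, adjusted p under 0.05, 9.34% of all features in that direction). The median difference of the change, DBA/2J minus C57BL/6J, was 1.80, against -0.03 over all features. The count was 13 without DBA/2J 10 cGy pool 1, 14 without pool 3 and 26 without pool 2, and it was 23 without DBA/2J control pool 1. Aurka had a difference of 2.37 ± 0.45 (adjusted p = 0.00154), Plk1, the Polo kinase of spindle assembly, of 2.29 ± 0.54 (adjusted p = 0.0057), and Birc5 of 2.23 ± 0.50 (adjusted p = 0.00433). The 22 include Kif2c, whose probe was detected on 0 of the 11 DBA/2J arrays, so that its difference of 1.11 ± 0.27 holds no measured DBA/2J change. Of the marker lists, 24 of 26 erythroid, 16 of 16 granulocyte and 10 of 10 megakaryocyte markers were more positive in DBA/2J. In contrast, 9 of 11 B cell, 10 of 13 T cell and 3 of 8 germinal centre and plasma cell markers were more negative. Their part was not tested. For the 1 Gy change the strains differed past the threshold for 1 member, Kif2c, at 1.66 ± 0.26 (adjusted p = 0.00279), where 0.536% of all features were more positive in DBA/2J. Its probe carried almost no signal on any DBA/2J array, so no DBA/2J change could be measured. For the other 28 members the 1 Gy difference between strains ran from -0.61 to 1.12, with a median over all 29 of 0.53. At the unadjusted level, 5 of the 29 (Cenpa, Kif22, Kif2c, Aurka and Plk1) had an unadjusted p under 0.05 (3.04% of all features more positive). The falls of the members at 1 Gy were thus not shown to differ between the strains.

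**Figure D3:**
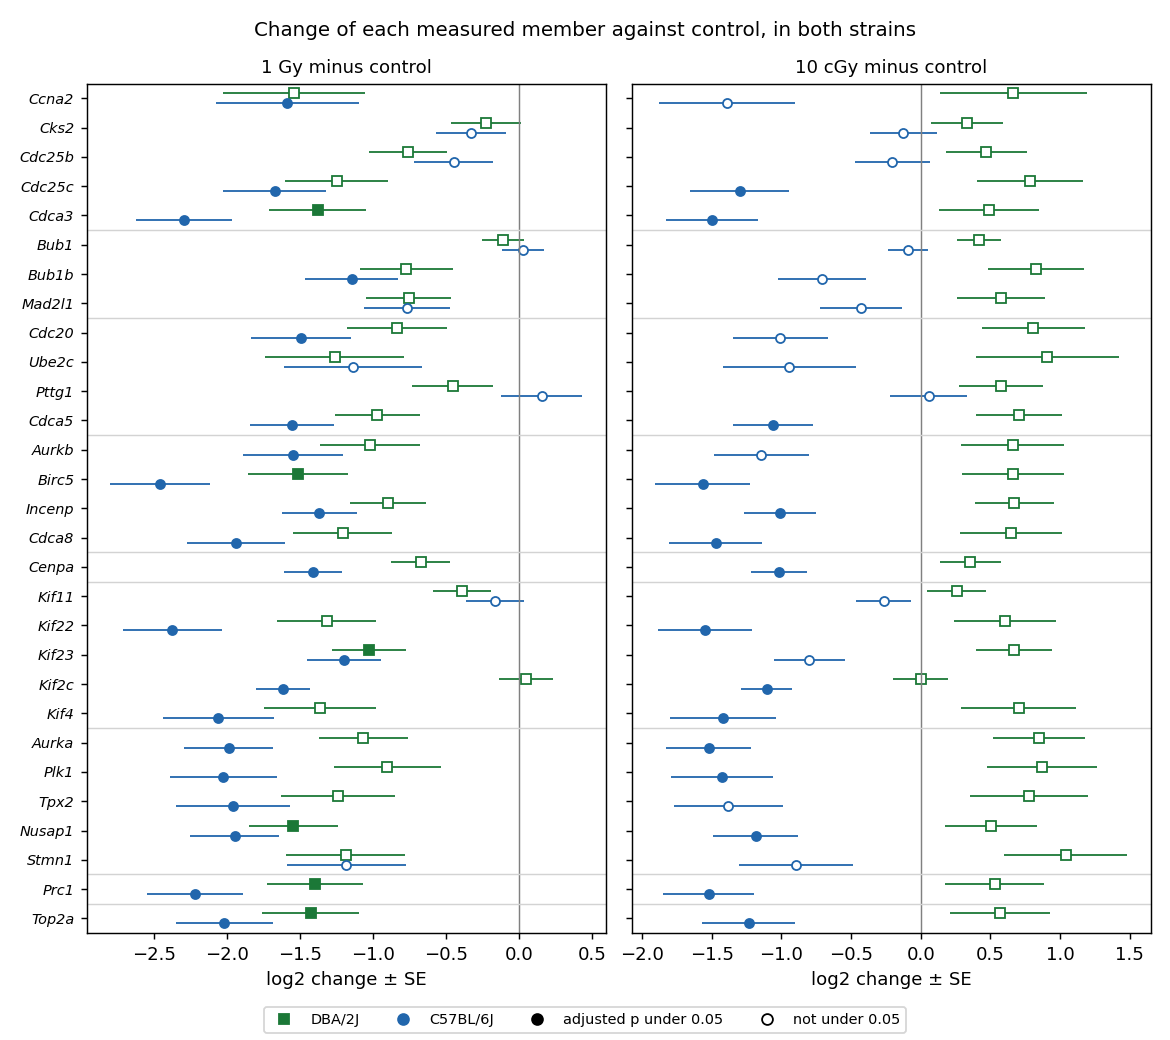
Log2 change of each measured member against the control pools of its strain, with its standard error, at 1 Gy (left) and 10 cGy (right); green squares are DBA/2J, blue circles C57BL/6J, and filled symbols passed an adjusted p of 0.05. At 1 Gy the symbols of both strains lie left of 0 for nearly all members, and at 10 cGy the strains lie on opposite sides for nearly all members, with no filled DBA/2J symbol.

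Between the 2 irradiated DBA/2J groups, 27 of 29 members were lower at 1 Gy than at 10 cGy, with a median change of -1.77. The background of that comparison was high: 36% of all features were called, and 15.9% of all features were lower. Of the marker lists, 24 of 26 erythroid, 16 of 16 granulocyte and 5 of 10 megakaryocyte markers were lower here too. In contrast, 9 of 11 B cell, 11 of 13 T cell and 5 of 8 germinal centre and plasma cell markers were higher. Their part was not tested. Pools did not overlap for 21 members, against 14.7% of all features. Without 10 cGy pool 2 the count was 28, and it was 25 without pool 1 or without pool 3. Kif2c and Cks2 were the 2 members that did not pass. Kif11 counts among the 27 but was detected on 2 of the 3 arrays at 10 cGy and on none at 1 Gy, so it entered through the higher group, and it was at least 1.46-fold lower (adjusted p = 0.0225). Nusap1 was likewise detected on 2 arrays at 10 cGy and on none at 1 Gy, although its signals lay far above the floor.

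Control pools of the strains differed for 2 members, Kif2c and Pttg1, both lower in DBA/2J, where 6.65% of all features were lower. Kif2c encodes a kinesin that takes microtubules apart at their ends and corrects wrong attachments. Its control pools had log2 signals of 4.57, 4.58, 4.54 and 4.69 in DBA/2J and of 9.67, 10.38, 10.01 and 10.30 in C57BL/6J, and it was detected on 0 of the 11 DBA/2J arrays. All DBA/2J pools lay just above the floor. Kif2c was at least 32.8-fold lower in DBA/2J (adjusted p = 6.68e-16). Pttg1, the securin that restrains the sister-cutting protease, had signals of 6.01, 5.48, 6.02 and 6.22 in DBA/2J control pools and of 8.54, 8.98, 7.97 and 8.07 in C57BL/6J control pools, a difference of -2.46 ± 0.28 (adjusted p = 6.89e-07). The groups did not overlap. Probe sequences were not used here, so a lower transcript level and a weaker match of the probe to the DBA/2J transcript cannot be told apart. The other 27 members had differences of -0.88 to 0.74 with a median over all 29 of 0.21, and none of these passed with all pools. Without DBA/2J control pool 1, Bub1b also passed as lower in DBA/2J.

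**Figure D4:**
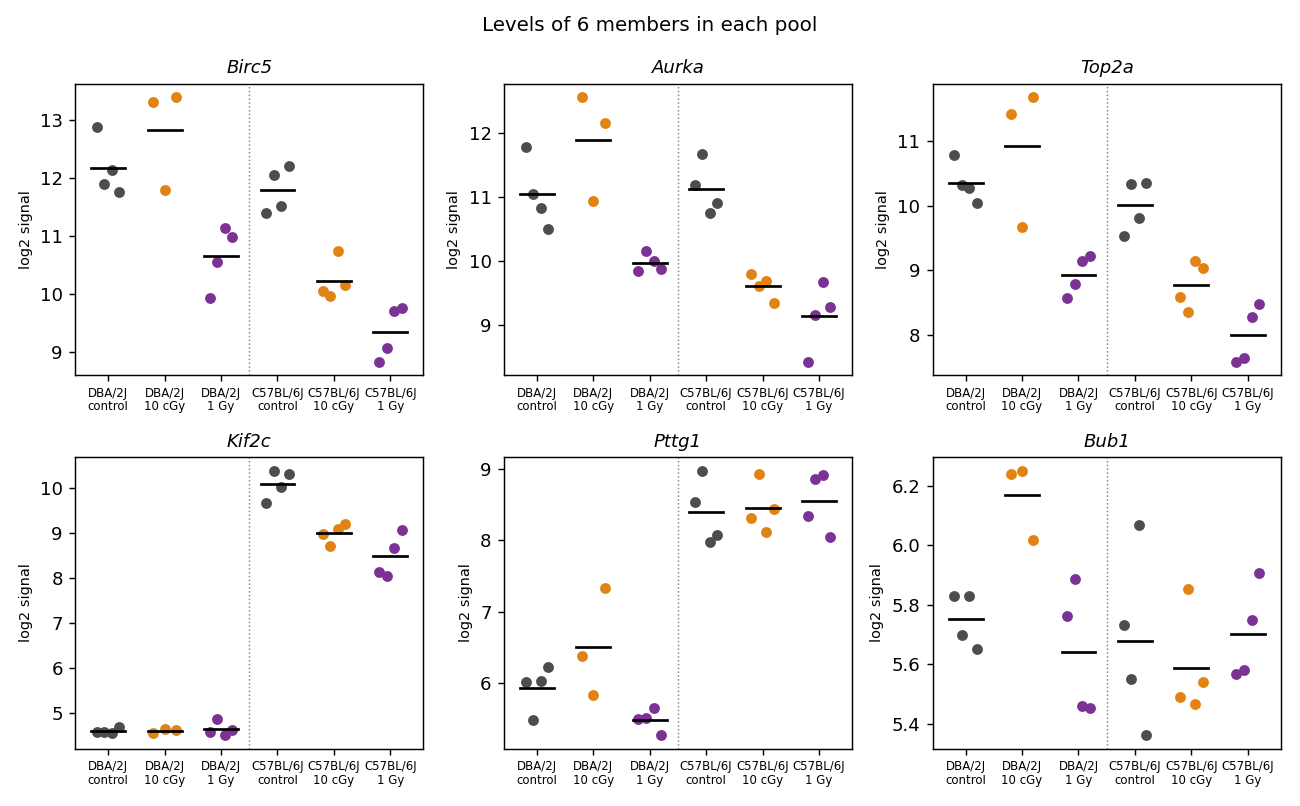
Log2 signal (vertical axes) of 6 members in each pool, by strain and dose; each point is 1 pool and the bar is the mean of the group. Birc5, Aurka and Top2a lay below their controls in all irradiated C57BL/6J pools, Kif2c lay near the floor in all DBA/2J pools, and Pttg1 and Bub1 kept overlapping C57BL/6J groups. Bub1 lay near background in all pools.

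Of the cyclins and CDK regulators, 8 were named and 5 measured. At 1 Gy, 1 of the 5 was called lower in DBA/2J (median change -1.25) and 3 in C57BL/6J (median -1.59). Cdca3, which recruits a ubiquitin ligase to the CDK1 inhibitor WEE1, had signals of 13.33, 12.48, 12.68 and 12.32 in the DBA/2J control pools, 13.82, 12.06 and 13.69 at 10 cGy and 10.91, 11.22, 11.64 and 11.52 at 1 Gy. In C57BL/6J it read 12.79, 13.45, 12.90 and 13.35 under control, 11.28, 11.48, 12.04 and 11.69 at 10 cGy and 10.13, 10.56, 11.37 and 11.25 at 1 Gy. Every irradiated C57BL/6J pool and every DBA/2J pool at 1 Gy lay below the controls of its strain. Against control Cdca3 had a change of -1.38 ± 0.33 (adjusted p = 0.0356) at 1 Gy in DBA/2J. In C57BL/6J the change was -1.50 ± 0.33 (adjusted p = 0.0107) at 10 cGy and -2.29 ± 0.33 (adjusted p = 7.37e-05) at 1 Gy. Cdc25c, a phosphatase that switches CDK1 on, read 8.54, 7.50, 7.88 and 7.46 in the DBA/2J control pools, 9.39, 7.14 and 9.36 at 10 cGy and 6.22, 6.44, 6.93 and 6.77 at 1 Gy. Its C57BL/6J pools read 7.05, 7.66, 7.03 and 7.67 under control, 5.95, 5.83, 6.21 and 6.22 at 10 cGy and 5.48, 5.43, 6.01 and 5.78 at 1 Gy. Its falls passed in C57BL/6J at 10 cGy, with a change of -1.30 ± 0.35 (adjusted p = 0.0414), and at 1 Gy, with a change of -1.68 ± 0.35 (adjusted p = 0.00356), and the DBA/2J groups at 1 Gy and control did not overlap though the change missed the threshold (adjusted p = 0.0764). The irradiated C57BL/6J pools of Cdc25c lay near background. Over other processing settings and pools left out, its C57BL/6J change ran from -1.41 to -0.14 at 10 cGy and from -1.80 to -0.16 at 1 Gy. Of 14 settings, 6 lost the 10 cGy call and 2 the 1 Gy call. Ccna2, the cyclin A of S phase and mitotic entry, read 7.25, 6.34, 6.97 and 7.09 in the DBA/2J control pools, 8.29, 5.50 and 8.96 at 10 cGy and 5.03, 5.18, 5.73 and 5.55 at 1 Gy. The C57BL/6J pools read 5.28, 7.12, 6.35 and 6.76 under control, 4.74, 4.67, 5.48 and 5.06 at 10 cGy and 4.83, 4.70, 4.60 and 5.03 at 1 Gy. The 1 Gy pools of C57BL/6J were near the floor and not detected, so Ccna2 was at least 2.52-fold lower there (adjusted p = 0.0466), a call that was lost when any of 7 of the 8 pools was left out. Cks2, a subunit that docks CDKs to their targets, and Cdc25b, a sister phosphatase of Cdc25c, did not pass: at the 2 doses in C57BL/6J the changes of Cks2 were -0.33 and -0.12 and those of Cdc25b were -0.45 and -0.21, at 1 Gy and 10 cGy in each case.

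Of 4 spindle checkpoint genes 3 were measured, and 1 was called lower at 1 Gy in C57BL/6J (median change -0.77) and 0 in DBA/2J (median -0.76). Bub1b, which encodes BUBR1, the checkpoint protein that blocks the anaphase-promoting complex, read 10.18, 9.27, 9.77 and 9.41 in the DBA/2J control pools, 11.01, 9.20 and 11.25 at 10 cGy and 8.48, 8.76, 9.16 and 9.14 at 1 Gy. C57BL/6J pools gave 10.15, 10.94, 10.33 and 10.72 under control, 9.71, 9.84, 9.79 and 9.96 at 10 cGy and 9.13, 9.08, 9.70 and 9.64 at 1 Gy. The irradiated C57BL/6J pools lay below the controls at both doses, and the fall passed at 1 Gy, with a change of -1.15 ± 0.32 (adjusted p = 0.0262), but not at 10 cGy, where the change was -0.71 ± 0.32 (adjusted p = 0.268). Leaving out single pools ended the 1 Gy call in 4 of 8 cases. Bub1, the kinase that recruits the checkpoint to kinetochores, had a change of 0.02 ± 0.14 (adjusted p = 0.957) at 1 Gy in C57BL/6J, with its groups overlapping. The Bub1 probe lay near background, with a mean log2 signal of 5.74 over all arrays, so a fall could hardly show. Mad2l1, the MAD2 protein that binds CDC20, had a change of -0.77 ± 0.29 (adjusted p = 0.118) there, without overlap of its groups.

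Among the genes of anaphase and sister separation, 4 of 5 were measured, and at 1 Gy 0 were called lower in DBA/2J (median change -0.90) and 2 in C57BL/6J (median -1.32). Cdc20, the activator of the anaphase-promoting complex, read 10.85, 9.89, 10.27 and 9.96 in the DBA/2J control pools, 11.59, 9.85 and 11.71 at 10 cGy and 8.83, 9.36, 9.87 and 9.56 at 1 Gy. In C57BL/6J it read 9.72, 9.94, 9.87 and 10.39 under control, 8.81, 8.89, 8.95 and 9.26 at 10 cGy and 7.91, 8.02, 8.88 and 9.14 at 1 Gy. Each irradiated C57BL/6J pool lay below each control pool, and the change was -1.01 ± 0.34 (adjusted p = 0.121) at 10 cGy, which did not pass, and -1.49 ± 0.34 (adjusted p = 0.00721) at 1 Gy, which did. Cdca5, the sororin that protects cohesion until anaphase, read 12.27, 11.47, 11.64 and 11.21 in the DBA/2J control pools, 12.92, 11.36 and 12.77 at 10 cGy and 10.40, 10.73, 10.89 and 10.68 at 1 Gy. Its C57BL/6J pools read 11.38, 11.86, 11.28 and 11.80 under control, 10.46, 10.45, 10.62 and 10.57 at 10 cGy and 9.33, 9.90, 10.42 and 10.45 at 1 Gy. Cdca5 had a change of -1.06 ± 0.29 (adjusted p = 0.042) at 10 cGy and of -1.56 ± 0.29 (adjusted p = 0.00109) at 1 Gy in C57BL/6J, and none of its irradiated pools there reached a control pool. Ube2c, the ubiquitin-conjugating enzyme of the same complex, had a change of -1.26 ± 0.47 (adjusted p = 0.2) at 1 Gy in DBA/2J and of -1.14 ± 0.47 (adjusted p = 0.159) in C57BL/6J, where no pool read above 6.66. Pttg1 had a change of 0.15 ± 0.28 (adjusted p = 0.825) at 1 Gy in C57BL/6J, where its groups overlapped.

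The chromosomal passenger complex was measured whole, with 4 of 4 subunits, and it had the highest share of calls at 1 Gy in C57BL/6J among classes of more than 1 measured gene. There, 4 of 4 were called lower (median change -1.75), against 1 of 4 in DBA/2J (median -1.12). Birc5, the survivin subunit that targets the complex to centromeres, read 12.87, 11.89, 12.13 and 11.76 in the DBA/2J control pools, 13.30, 11.78 and 13.39 at 10 cGy and 9.93, 10.55, 11.14 and 10.98 at 1 Gy. The C57BL/6J pools read 11.39, 12.05, 11.51 and 12.21 under control, 10.05, 9.97, 10.73 and 10.15 at 10 cGy and 8.83, 9.06, 9.70 and 9.74 at 1 Gy. All irradiated C57BL/6J pools and all DBA/2J pools at 1 Gy lay below their controls. Birc5 had a change of -1.51 ± 0.34 (adjusted p = 0.0274) at 1 Gy in DBA/2J and of -2.46 ± 0.34 (adjusted p = 4.76e-05) at 1 Gy in C57BL/6J. Aurkb, the kinase of the complex, read 11.09, 9.96, 10.47 and 10.17 in the DBA/2J control pools, 11.57, 9.96 and 11.72 at 10 cGy and 8.95, 9.17, 9.82 and 9.66 at 1 Gy. C57BL/6J pools gave 9.92, 10.41, 10.14 and 10.58 under control, 8.73, 9.02, 9.68 and 9.04 at 10 cGy and 8.25, 8.25, 8.96 and 9.38 at 1 Gy. Among its 4 comparisons with control 1 passed, the 1 Gy change in C57BL/6J of -1.55 ± 0.34 (adjusted p = 0.00522), although the 10 cGy pools also lay below the controls (adjusted p = 0.0679).

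Incenp, the scaffold of the passenger complex, read 11.45, 10.90, 10.79 and 10.72 in the DBA/2J control pools, 12.10, 10.73 and 12.08 at 10 cGy and 9.92, 9.91, 10.19 and 10.26 at 1 Gy. In C57BL/6J it read 10.28, 11.29, 10.65 and 11.14 under control, 9.61, 9.56, 9.98 and 10.18 at 10 cGy and 9.20, 9.47, 9.62 and 9.61 at 1 Gy. Its change in C57BL/6J was -1.01 ± 0.26 (adjusted p = 0.0295) at 10 cGy and -1.37 ± 0.26 (adjusted p = 0.00136) at 1 Gy, with no irradiated pool reaching a control pool. Cdca8, the borealin subunit, read 11.84, 10.95, 10.93 and 10.51 in the DBA/2J control pools, 12.29, 10.62 and 12.21 at 10 cGy and 9.18, 9.96, 10.23 and 10.03 at 1 Gy. Its C57BL/6J pools read 10.88, 11.35, 10.75 and 11.30 under control, 9.40, 9.56, 9.75 and 9.69 at 10 cGy and 8.47, 8.86, 9.62 and 9.57 at 1 Gy. The change of Cdca8 at 1 Gy in C57BL/6J was -1.94 ± 0.34 (adjusted p = 0.00059), and at 10 cGy it was -1.47 ± 0.34 (adjusted p = 0.0141). The deposited detection p-value of Cdca8 was under 0.05 on 5 of 23 arrays, none of them at 10 cGy, although its signals lay far above the floor.

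Cenpa, the histone variant that marks the centromere, was the 1 measured centromere member of 3. It read 14.10, 13.69, 13.78 and 13.44 in the DBA/2J control pools, 14.40, 13.45 and 14.47 at 10 cGy and 12.88, 12.98, 13.27 and 13.19 at 1 Gy. The C57BL/6J pools read 13.49, 13.99, 13.70 and 13.73 under control, 12.57, 12.59, 13.06 and 12.61 at 10 cGy and 11.92, 12.33, 12.45 and 12.57 at 1 Gy. The irradiated C57BL/6J pools all lay below the controls, and Cenpa had a change of -1.02 ± 0.20 (adjusted p = 0.00468) at 10 cGy and of -1.41 ± 0.20 (adjusted p = 6.28e-05) at 1 Gy. A dimmer probe for Cenpa, not used in the counts, had changes of -1.03 and -1.28 in the same comparisons. In DBA/2J the 1 Gy change of Cenpa was -0.67 ± 0.20 (adjusted p = 0.0909), without overlap of the groups.

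Of 6 kinesins 5 were measured, and at 1 Gy 1 was called lower in DBA/2J (median change -1.03) and 4 in C57BL/6J (median -1.62). The DBA/2J median includes Kif2c and Kif11, whose probes were at or near the floor there, and Kif22, Kif23 and Kif4 had changes of -1.32 ± 0.34, -1.03 ± 0.25 and -1.36 ± 0.38. Kif22, a chromokinesin that pushes chromosome arms outward, read 12.14, 11.53, 11.47 and 11.11 in the DBA/2J control pools, 12.67, 11.11 and 12.73 at 10 cGy and 9.77, 10.41, 10.45 and 10.35 at 1 Gy. C57BL/6J pools gave 11.03, 11.64, 10.87 and 11.44 under control, 9.49, 9.75, 9.76 and 9.78 at 10 cGy and 7.92, 8.63, 9.64 and 9.28 at 1 Gy. Kif22 had a change of -2.37 ± 0.34 (adjusted p = 6.48e-05) at 1 Gy in C57BL/6J and of -1.32 ± 0.34 at 1 Gy in DBA/2J, where an adjusted p of 0.050004 put it just outside the threshold. Kif4, a chromokinesin that shapes the chromosome axis and the midzone, read 10.33, 9.72, 9.92 and 9.53 in the DBA/2J control pools, 11.11, 9.16 and 11.46 at 10 cGy and 7.88, 8.36, 9.05 and 8.76 at 1 Gy. In C57BL/6J it read 8.91, 9.83, 9.02 and 9.85 under control, 7.69, 7.57, 8.42 and 8.26 at 10 cGy and 7.11, 6.91, 7.53 and 7.81 at 1 Gy. It had a change of -1.42 ± 0.38 (adjusted p = 0.0397) at 10 cGy and of -2.06 ± 0.38 (adjusted p = 0.00109) at 1 Gy in C57BL/6J, with every irradiated pool below the controls.

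Kif23, the kinesin of the central spindle that drives cytokinesis, read 11.66, 11.12, 11.08 and 10.89 in the DBA/2J control pools, 12.27, 10.90 and 12.39 at 10 cGy and 10.03, 10.12, 10.14 and 10.35 at 1 Gy. Its C57BL/6J pools read 10.74, 11.49, 10.52 and 11.16 under control, 10.13, 10.22, 10.16 and 10.21 at 10 cGy and 9.57, 9.58, 10.14 and 9.82 at 1 Gy. Kif23 fell at 1 Gy, with changes of -1.03 ± 0.25 (adjusted p = 0.0416) in DBA/2J and of -1.20 ± 0.25 (adjusted p = 0.00361) in C57BL/6J, and the strain difference of that change was 0.17 ± 0.36 (adjusted p = 1). A dimmer probe for Kif23, with a mean log2 signal of 6.29, was not used in the counts and had smaller changes. They were -0.62 at 1 Gy in DBA/2J, and -0.59 at 1 Gy and -0.45 at 10 cGy in C57BL/6J. Kif2c was measurable in C57BL/6J, where it read 9.67, 10.38, 10.01 and 10.30 under control, 8.97, 8.71, 9.08 and 9.19 at 10 cGy and 8.14, 8.04, 8.66 and 9.06 at 1 Gy. Its groups were separate at both doses, and it had a change of -1.11 ± 0.18 (adjusted p = 0.00129) at 10 cGy and of -1.62 ± 0.18 (adjusted p = 4.23e-06) at 1 Gy, the lowest adjusted p of any member in that comparison. Kif11, the motor that keeps the spindle poles apart, read at most 5.31 in any C57BL/6J pool and was detected on 3 of 23 arrays, so its changes against control could not be read.

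The genes of spindle assembly and mitotic kinases had 5 of 8 members measured, of which 1 was called lower at 1 Gy in DBA/2J (median change -1.19) and 4 in C57BL/6J (median -1.96). Aurka, the Aurora kinase of centrosomes, read 11.78, 11.05, 10.82 and 10.51 in the DBA/2J control pools, 12.56, 10.94 and 12.16 at 10 cGy and 9.84, 10.16, 10.00 and 9.88 at 1 Gy. The C57BL/6J pools read 11.19, 11.67, 10.74 and 10.91 under control, 9.80, 9.60, 9.68 and 9.34 at 10 cGy and 8.43, 9.16, 9.68 and 9.29 at 1 Gy. It had a change of -1.52 ± 0.31 (adjusted p = 0.00515) at 10 cGy and of -1.99 ± 0.31 (adjusted p = 0.000148) at 1 Gy in C57BL/6J, and both calls were kept whichever single pool was left out. Tpx2, the protein that activates Aurora A on microtubules, read 11.31, 9.99, 10.37 and 10.26 in the DBA/2J control pools, 11.99, 9.77 and 12.01 at 10 cGy and 9.01, 9.15, 9.39 and 9.42 at 1 Gy. C57BL/6J pools gave 10.10, 11.13, 9.62 and 10.39 under control, 8.64, 9.09, 8.98 and 9.01 at 10 cGy and 8.01, 8.11, 8.98 and 8.30 at 1 Gy. The groups did not overlap, and the change was -1.96 ± 0.39 (adjusted p = 0.00214) at 1 Gy, whereas the 10 cGy change of -1.38 ± 0.39 narrowly missed the threshold (adjusted p = 0.0521).

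Plk1, the Polo kinase that acts from mitotic entry to cytokinesis, read 12.15, 10.98, 10.71 and 10.60 in the DBA/2J control pools, 12.69, 10.95 and 12.30 at 10 cGy and 9.93, 10.46, 10.34 and 10.08 at 1 Gy. In C57BL/6J it read 11.18, 11.77, 10.68 and 11.23 under control, 9.77, 10.09, 9.60 and 9.70 at 10 cGy and 8.41, 8.92, 10.04 and 9.40 at 1 Gy. Plk1 had a change of -1.42 ± 0.37 (adjusted p = 0.0297) at 10 cGy and of -2.02 ± 0.37 (adjusted p = 0.000881) at 1 Gy in C57BL/6J, and of -0.90 ± 0.37 (adjusted p = 0.244) at 1 Gy in DBA/2J, without overlap of the groups in either strain. Nusap1, a microtubule-bundling protein of the spindle, read 11.98, 11.12, 11.04 and 10.81 in the DBA/2J control pools, 12.26, 10.78 and 12.17 at 10 cGy and 9.43, 9.65, 9.80 and 9.87 at 1 Gy. Its C57BL/6J pools read 10.43, 11.01, 10.06 and 10.49 under control, 9.26, 9.47, 9.52 and 9.01 at 10 cGy and 7.91, 8.42, 9.20 and 8.68 at 1 Gy. Every 1 Gy pool lay below its controls in both strains. Nusap1 was not detected by its deposited p-value in the irradiated groups of C57BL/6J or at 1 Gy in DBA/2J, although its signals there lay far above the floor. On those signals its change at 1 Gy was -1.55 ± 0.30 (adjusted p = 0.0123) in DBA/2J and -1.95 ± 0.30 (adjusted p = 0.00018) in C57BL/6J, and at 10 cGy in C57BL/6J it was -1.18 ± 0.30 (adjusted p = 0.0297). Stmn1 had a 1 Gy change of -1.19 ± 0.41 (adjusted p = 0.152) in DBA/2J, where its groups overlapped, and of -1.19 ± 0.41 (adjusted p = 0.0797) in C57BL/6J, where they did not, and neither passed.

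Prc1, which crosslinks midzone microtubules, was the 1 measured cytokinesis gene of 4. It read 12.53, 11.79, 11.96 and 11.74 in the DBA/2J control pools, 13.21, 11.34 and 13.06 at 10 cGy and 10.13, 10.51, 10.92 and 10.85 at 1 Gy. The C57BL/6J pools read 11.43, 12.29, 11.48 and 11.92 under control, 10.08, 10.06, 10.71 and 10.18 at 10 cGy and 9.08, 9.21, 10.01 and 9.94 at 1 Gy. Its 1 Gy change was -1.40 ± 0.33 (adjusted p = 0.0328) in DBA/2J and -2.22 ± 0.33 (adjusted p = 9.67e-05) in C57BL/6J, and its groups were separate in each case. Top2a, the topoisomerase that untangles sister chromatids, read 10.78, 10.32, 10.28 and 10.04 in the DBA/2J control pools, 11.42, 9.66 and 11.69 at 10 cGy and 8.56, 8.78, 9.14 and 9.22 at 1 Gy. C57BL/6J pools gave 9.53, 10.34, 9.81 and 10.36 under control, 8.58, 8.35, 9.14 and 9.04 at 10 cGy and 7.58, 7.63, 8.27 and 8.48 at 1 Gy. Top2a had a change of -1.43 ± 0.33 (adjusted p = 0.0323) at 1 Gy in DBA/2J. In C57BL/6J the change was -1.24 ± 0.33 (adjusted p = 0.0399) at 10 cGy and -2.02 ± 0.33 (adjusted p = 0.000319) at 1 Gy.

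Set side by side with no test, the classes with several measured genes had median 1 Gy changes in C57BL/6J of -1.96 for spindle assembly and mitotic kinases, -1.75 for the passenger complex, -1.62 for kinesins, -1.59 for cyclins and CDK regulators, -1.32 for anaphase genes and -0.77 for the checkpoint. At 10 cGy the C57BL/6J medians of these classes were -1.38, -1.31, -1.11, -1.30, -0.98 and -0.43. In DBA/2J the kinesins are left out, since 2 of the 5 probes had little signal there. The other 5 classes, in the same order, had medians of 0.85, 0.66, 0.49, 0.76 and 0.57 at 10 cGy and of -1.19, -1.12, -1.25, -0.90 and -0.76 at 1 Gy. The checkpoint class holds 3 genes, whose 1 Gy changes ran from -1.15 to 0.02 in C57BL/6J. The 0.02 is that of Bub1, whose probe lay near background (mean log2 signal 5.74 over all arrays), so a fall could hardly show. Other probes near background also stay in these medians: Ccna2 (5.93) and Cks2 (5.72) among the cyclins, Ube2c (5.72) among the anaphase genes and Kif11 (5.10) among the kinesins. Pttg1 lay near background in DBA/2J and stays in the anaphase medians there. Cdc25c lay near background in the irradiated C57BL/6J pools and stays in the cyclin medians there.

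Some members that missed the detection rule carried strong signals. The deposited detection p-value did not follow the signal for a minority of bright probes: 179 of 6336 probes with signals over the bright limit on all arrays (2.83%) failed the rule. Judged instead by signal, against a limit set from each array's background, Cdk1, Cenpe, Spag5 and Anln were above the limit on 23 of 23 arrays, Foxm1 on 20 and Ect2 on 6, whereas Ccnb2, Ttk, Espl1, Nek2, Hmmr and Racgap1 stayed below it on all but at most 2 arrays. This criterion was chosen after seeing the data. With it 17574 features and 35 members were tested, and the members called lower were 11 at 1 Gy in DBA/2J (1.17% of all features), 21 at 10 cGy in C57BL/6J (3.05%) and 26 at 1 Gy in C57BL/6J (4.81%).

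Cdk1, the kinase that drives entry into mitosis, read 10.90, 10.14, 10.44 and 9.87 in the DBA/2J control pools, 11.51, 10.18 and 11.48 at 10 cGy and 8.84, 9.14, 9.47 and 9.33 at 1 Gy. In C57BL/6J it read 10.04, 10.54, 9.75 and 10.26 under control, 8.45, 8.46, 9.04 and 8.77 at 10 cGy and 7.65, 7.78, 8.37 and 8.21 at 1 Gy. It lay below the controls in every C57BL/6J pool of either dose and in every DBA/2J pool at 1 Gy, and it had a change of -1.15 ± 0.27 (adjusted p = 0.0317) at 1 Gy in DBA/2J, -1.46 ± 0.27 (adjusted p = 0.00248) at 10 cGy in C57BL/6J and -2.14 ± 0.27 (adjusted p = 1.39e-05) at 1 Gy in C57BL/6J. Anln, the anillin of the cleavage furrow, read 10.92, 10.12, 9.92 and 9.78 in the DBA/2J control pools, 11.41, 9.76 and 11.47 at 10 cGy and 8.45, 8.94, 9.05 and 8.98 at 1 Gy. Its C57BL/6J pools read 9.63, 10.38, 9.65 and 10.14 under control, 7.85, 7.93, 8.66 and 7.70 at 10 cGy and 7.06, 7.01, 7.83 and 7.75 at 1 Gy. The 1 Gy pools of C57BL/6J lay below all of their controls, and the change of Anln was -2.54 ± 0.33 (adjusted p = 2.05e-05). Cenpe, a kinesin of the kinetochore, had a change of -1.52 ± 0.39 (adjusted p = 0.0491) at 1 Gy in DBA/2J and of -2.21 ± 0.39 (adjusted p = 0.000642) in C57BL/6J. Spag5, the astrin of the spindle, had a change of -1.37 ± 0.34 (adjusted p = 0.0405) and of -2.18 ± 0.34 (adjusted p = 0.00015) in the same comparisons. Foxm1, a transcription factor of late cell cycle genes, had a change of -1.09 ± 0.35 (adjusted p = 0.114) at 1 Gy in DBA/2J and of -1.73 ± 0.35 (adjusted p = 0.00216) in C57BL/6J.

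**Figure D5:**
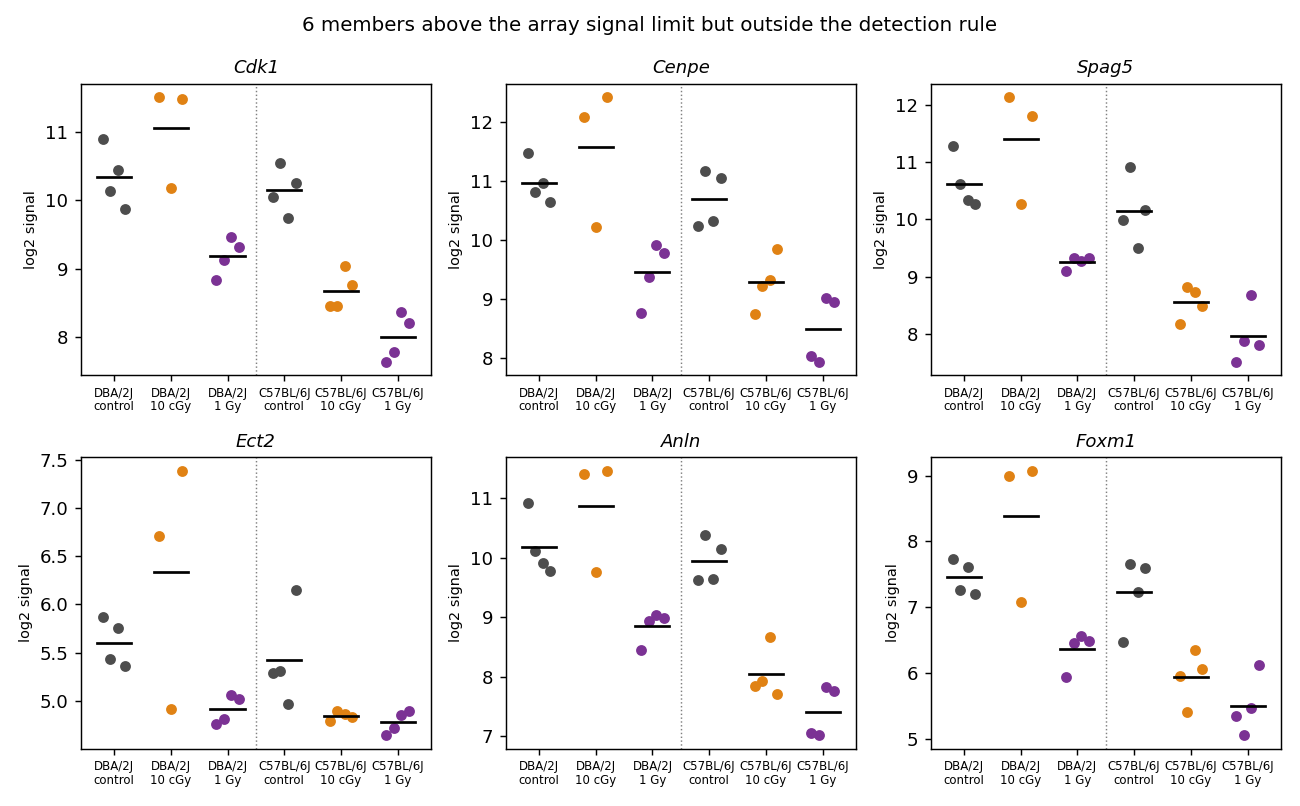
Log2 signal (vertical axes) of the 6 members that passed a limit on signal but not the detection rule, in each pool by strain and dose; each point is 1 pool and the bar is the mean of the group. Cdk1, Cenpe, Spag5 and Anln were lower in all irradiated C57BL/6J pools than in all control pools of that strain, and DBA/2J 10 cGy pool 2 lay below the other pools of its group for all 6.

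Promoter sequences of the members are shown because these genes moved together and many are known DREAM targets. RefSeq windows of build GRCm38.p6, from 250 bases before to 50 after the annotated start, held 23 of the 29 measured members, and Ccna2, Cdc25c, Aurkb, Incenp, Tpx2 and Stmn1 were not matched. The CHR motif was searched as TTTGAA or TTTAAA and the CCAAT box as CCAAT, each on both strands. On the other strand the first reads TTCAAA. The CCAAT box reads ATTGG there. A CHR motif lying within 60 bases before to 20 after the start occurred in 11 of the 23 (47.8%), against 2286 of 27025 genes with an entry (8.46%). CCAAT occurred in 17 of 23 (73.9%), against 41.1% of all genes, and a near CHR motif together with CCAAT in 10 of 23 (43.5%), against 3.48%. Of the 150 bases just before the start, the stretches of 6 members called lower at 1 Gy in C57BL/6J held both motifs, shown in capitals, and those of Birc5 and Nusap1, lower at 1 Gy in both strains, held neither. Each is given 5′ to 3′ on the strand of its gene, and the upstream stretch of Prc1 belongs to the later of its 2 annotated starts.
Top2a, chr11:99024190-99024339, minus strand: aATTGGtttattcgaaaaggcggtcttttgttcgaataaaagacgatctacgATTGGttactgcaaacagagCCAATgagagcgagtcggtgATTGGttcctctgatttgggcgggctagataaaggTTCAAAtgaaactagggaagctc
Prc1, chr7:80294326-80294475, plus strand: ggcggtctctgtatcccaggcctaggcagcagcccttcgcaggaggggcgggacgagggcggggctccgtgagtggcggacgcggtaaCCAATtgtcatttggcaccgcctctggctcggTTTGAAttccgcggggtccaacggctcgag
Plk1, chr7:122159285-122159434, plus strand: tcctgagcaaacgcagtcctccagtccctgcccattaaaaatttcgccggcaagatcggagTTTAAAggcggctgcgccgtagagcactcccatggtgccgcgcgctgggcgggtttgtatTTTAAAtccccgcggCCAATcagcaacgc
Cdc20, chr4:118437344-118437493, minus strand: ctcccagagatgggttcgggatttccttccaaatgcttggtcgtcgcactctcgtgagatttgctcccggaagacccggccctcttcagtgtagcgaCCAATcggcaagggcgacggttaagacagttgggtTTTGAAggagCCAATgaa
Cenpa, chr5:30666736-30666885, plus strand: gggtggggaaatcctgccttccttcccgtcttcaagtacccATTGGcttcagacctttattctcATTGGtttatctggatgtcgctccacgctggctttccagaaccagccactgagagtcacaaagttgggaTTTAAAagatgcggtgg
Kif22, chr7:127042421-127042570, minus strand: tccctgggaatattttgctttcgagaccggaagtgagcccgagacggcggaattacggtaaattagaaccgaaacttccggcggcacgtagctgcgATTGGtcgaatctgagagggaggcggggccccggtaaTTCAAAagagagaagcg
Birc5, chr11:117849087-117849236, plus strand: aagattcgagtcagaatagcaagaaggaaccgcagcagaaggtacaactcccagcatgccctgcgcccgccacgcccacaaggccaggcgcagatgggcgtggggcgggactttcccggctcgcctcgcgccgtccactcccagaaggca
Nusap1, chr2:119618148-119618297, plus strand: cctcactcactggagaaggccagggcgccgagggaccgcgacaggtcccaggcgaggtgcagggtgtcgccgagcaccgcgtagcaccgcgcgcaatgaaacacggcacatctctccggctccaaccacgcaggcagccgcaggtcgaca
The other members called lower at 1 Gy in C57BL/6J that had an entry held only CHR or only CCAAT in the same 150 bases. Kif11 and Ube2c, which were not called there, held both. A match of letters is a description and not a binding site, and promoters with and without the motifs were found among the members that fell most.

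Mitosis genes outside the 45 were counted in the same comparisons. Of 77 further genes listed, 48 were measured, and 3 were lower at 1 Gy in DBA/2J (median change -0.87), 13 at 10 cGy in C57BL/6J (median -0.91) and 27 at 1 Gy in C57BL/6J (median -1.13), with 0 higher in those comparisons. The shares of all features called lower were 1.11%, 2.97% and 4.66%. At 10 cGy in DBA/2J 1 was higher, Pimreg, at 1.17 ± 0.23 (adjusted p = 0.00438), and 0 lower (median 0.72). At 1 Gy in C57BL/6J the largest falls were those of Kif18b, a kinesin of the plus ends, with a change of -2.51 ± 0.37 (adjusted p = 8.2e-05), Oip5, which helps load CENPA, with a change of -2.32 ± 0.32 (adjusted p = 4.16e-05), Aspm, a spindle pole protein, with a change of -2.18 ± 0.44 (adjusted p = 0.00261), and Dlgap5, a spindle stabiliser, with a change of -2.18 ± 0.40 (adjusted p = 0.000943). In DBA/2J at 1 Gy the 3 called were Spc25 of the kinetochore, with a change of -1.56 ± 0.35 (adjusted p = 0.0265), Kif18b, with a change of -1.51 ± 0.37 (adjusted p = 0.0369), and Oip5, with a change of -1.38 ± 0.32 (adjusted p = 0.0306).

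Of 13 regulators of late cell cycle genes listed, Cdkn1a among them, 10 were measured. At 1 Gy in C57BL/6J 3 were lower and 1 higher (4.66% and 3.44% of all features), with a median change of -0.48. At 10 cGy in C57BL/6J 2 were lower and 0 higher (2.97% and 0.623%, median -0.35). In DBA/2J 1 was lower and 1 higher at 1 Gy (1.11% and 0.472%, median -0.35). At 10 cGy in DBA/2J 0 were lower and 2 higher (6.82% and 3.43%, median 0.52). Cdkn1a was the 1 gene called higher at 1 Gy in each strain and was also 1 of these 2. Mybl2, the B-MYB partner of MuvB, had a change of -1.37 ± 0.34 (adjusted p = 0.0264) at 10 cGy and of -1.75 ± 0.34 (adjusted p = 0.00184) at 1 Gy in C57BL/6J. E2f1, an activator of cell cycle genes, had changes of -1.03 ± 0.25 (adjusted p = 0.023) and of -1.25 ± 0.25 (adjusted p = 0.00251) in the same comparisons. E2f2 fell at 1 Gy in both strains, with changes of -1.63 ± 0.37 (adjusted p = 0.0288) in DBA/2J and of -1.62 ± 0.37 (adjusted p = 0.00699) in C57BL/6J. Cdkn1a, the p53 target that inhibits CDKs, read 8.75, 8.37, 8.34 and 7.85 in the DBA/2J control pools, 9.97, 9.58 and 9.58 at 10 cGy and 9.50, 9.91, 9.69 and 9.64 at 1 Gy. The C57BL/6J pools read 8.49, 7.99, 8.001 and 7.87 under control, 8.80, 8.60, 8.47 and 8.55 at 10 cGy and 10.39, 10.77, 10.26 and 9.63 at 1 Gy. All irradiated DBA/2J pools and all C57BL/6J pools at 1 Gy lay above their controls. Cdkn1a had a change of 1.38 ± 0.22 (adjusted p = 0.000838) at 10 cGy and 1.36 ± 0.20 (adjusted p = 0.00219) at 1 Gy in DBA/2J. Its C57BL/6J changes were 0.52 ± 0.20 (adjusted p = 0.195) at 10 cGy and 2.18 ± 0.20 (adjusted p = 6.01e-07) at 1 Gy. Cdkn1a was higher in the DBA/2J pools at 10 cGy, pool 2 included, where 0 of 29 members were called lower. At 10 cGy in C57BL/6J, where 15 members were called lower, its change of 0.52 ± 0.20 did not pass. There only 10 cGy pool 3, at 8.47, did not lie above every control pool. The part of Cdkn1a in the member values was not tested.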

How the data were processed

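Per the file headers, the deposited table held a signal intensity and a detection p-value for each of 34492 probes on 23 arrays, and the authors' processed values were log2 values. The submitters' processing notes name lumi without a version. Deposited signals were background-corrected with normexp, using negative controls inferred from the deposited detection p-values, with an offset of 16, then quantile-normalized and taken to log2. The background was summarised by the median and MAD, because the plain mean lay above the signal at which the detection p-value reaches 0.05. Probes with a detection p-value under 0.05 on 3 or more arrays were kept (18423), and the brightest stood for its gene (17176 features). The groups were fitted in one model with limma 3.58.1 in R 4.3.3, and p-values were adjusted by the Benjamini-Hochberg method over all features. "Called" means an adjusted p under 0.05. A fold written "at least" is for a group detected on no array by the deposited p-values. It set the brighter group's mean against the dim probe's signal, raised on each array to the dimmest detected probe where it lay below that, and is printed only where the dim signals lay near the floor. The fit was tested on simulated data.

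The members and lists were chosen with earlier results of these data known. Values in every pool are given for members called in a comparison of a dose with control. Up to 4 called genes of any other list are named by size of change, and Cdkn1a whatever its values. Alternatives covered background, offset, normalization, detection filter, the authors' values, probe choice, array weights, the groups fitted and each pool left out. Promoters came from RefSeq tables of GRCm38.p6, and probe sequences were not used here.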

Additional observations from a re-analysis of the deposited data

Results flagged for a closer look

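The change at 10 cGy, DBA/2J minus C57BL/6J on the log2 scale, differed between the strains by an interaction term in limma for 22 members, Kif2c included. Grouped in the order of their classes, the differences of the others were 2.055 for Ccna2, 2.085 for Cdc25c, 1.988 for Cdca3, 1.539 for Bub1b, 1.816 for Cdc20, 1.764 for Cdca5, 1.804 for Aurkb, 2.229 for Birc5, 1.683 for Incenp, 2.122 for Cdca8, 1.376 for Cenpa, 2.154 for Kif22, 1.466 for Kif23, 2.118 for Kif4, 2.371 for Aurka, 2.293 for Plk1, 2.157 for Tpx2, 1.686 for Nusap1, 1.933 for Stmn1, 2.053 for Prc1 and 1.805 for Top2a. All are positive, and 13 members passed without DBA/2J 10 cGy pool 1, 26 without pool 2 and 14 without pool 3. Leaving out single pools ended the call in 11 of 15 cases for Ccna2 and in 6 of 15 for Stmn1. For each of the other members listed it did so in at most 3 of 15. Kif2c had differences of 1.106 at 10 cGy and 1.662 at 1 Gy, but its probe was detected on 0 of the 11 DBA/2J arrays, so neither holds a measured DBA/2J change.

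Among 145 groups of 4 pools, 8 had 1 pool far from the rest, measured as its gap to the nearest pool over the group's whole range. Chance alone gives such a pool in about 5% of groups. In C57BL/6J at 10 cGy, pool 4 was high for Cks2 (0.898) and low for Mad2l1 (0.841), pool 3 was high for Cenpa (0.924) and pool 1 was low for Kif22 (0.901). In DBA/2J at 1 Gy, pool 3 was low for Mad2l1 (0.857) and pool 1 for Kif22 (0.863). In DBA/2J controls, pool 1 was high for Mad2l1 (0.899) and pool 3 for Cks2 (0.856).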

How the results depend on the processing

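No call of a member changed direction: of 94 calls over 38 settings, 2029 values kept their side of the threshold, 193 lost it and 0 reversed. Keeping only probes detected on all 23 arrays left 16 members to test. Of these 13 were lower at 1 Gy in C57BL/6J (9.29% of all features called), 3 at 1 Gy in DBA/2J (2.58%), 16 for 1 Gy against 10 cGy in DBA/2J (42.8%), 0 between control strains, 14 for the strain difference at 10 cGy (27.5%) and 0 for that at 1 Gy. With the authors' processed values, 2 were lower at 1 Gy in DBA/2J and 8 at 10 cGy in C57BL/6J, and medians were -1.02 at 1 Gy in C57BL/6J, -1.35 for 1 Gy against 10 cGy in DBA/2J and 1.36 for the strain difference at 10 cGy. Array quality weights gave, in DBA/2J, 20 lower at 1 Gy (6.33% of all features called, against 1.58% without weights) and 27 higher at 10 cGy (median 1.19, 38.1% called, against 10.2%), a median of -2.18 between these doses, 2 for the strain difference at 1 Gy and a median of 2.42 for that at 10 cGy. At 1 Gy in DBA/2J the count was 1 with no detection filter, 18 with only the groups compared and 11 with probes kept by signal, a setting chosen after seeing the data. At 10 cGy in C57BL/6J it was 9 with the plain background. The cause of these shifts was otherwise not tested.

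Leaving out each pool gave 19 to 21 lower at 1 Gy in C57BL/6J, 7 to 17 at 10 cGy in C57BL/6J and 0 to 7 at 1 Gy in DBA/2J. At 10 cGy in DBA/2J it gave 0 to 26 higher (medians 0.35 to 1.19). For 1 Gy against 10 cGy in DBA/2J it gave 25 to 28 lower (medians -2.28 to -1.49). For the strain difference at 10 cGy it gave 13 to 26 (medians 1.475 to 2.41), and between control strains 2 to 3. No paired analysis was possible because the labels give no replicate numbers that groups share. Probes near background limit Ccna2, Cks2, Bub1, Ube2c and Kif11, in DBA/2J also Kif2c and Pttg1, and in the irradiated C57BL/6J pools also Cdc25c.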
